A study of Mus musculus with 12 samples.

Results

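The 3 genes described here, Mettl3, Igf2bp3 and Snd1, belong to the m6A machinery, and YTHDF1 CLIP peaks were counted for each in mouse striatum. They were taken by gene symbol from the 1247 genes with peaks in either of 2 deposited tables. All 3 were among the 1049 genes of the cocaine table, and Igf2bp3 and Snd1 were also among the 449 genes of the saline table. The samples were striatum of wild-type C57BL/6J mice that had received cocaine or saline. Each treatment had 3 libraries of RNA precipitated with a monoclonal antibody against YTHDF1 (CLIP, in which protein and RNA are joined by ultraviolet light before precipitation) and 3 input libraries, which are not analysed here. The labels name striatal neurons, while the protocol describes lysed whole brain tissue, and they give no dose, time, sex or age and no link from a library to an animal. Each value is the number of peaks counted for a gene in 1 library. A gene was listed only above a cutoff, at a mean of at least 6.33 peaks in the cocaine table and 1.33 in the saline table, and with at least 1 peak in every library.

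N6-methyladenosine (m6A) is a methyl mark on adenosines of messenger RNA. Writers place it, erasers remove it, and readers bind RNAs that carry it and act on their translation, stability or splicing. Mettl3 encodes the catalytic subunit of the nuclear writer complex. Igf2bp3 encodes an RNA-binding protein with KH domains that is reported as a reader that stabilises its targets. Snd1 encodes a protein with staphylococcal nuclease-like and Tudor domains that works in several steps of RNA metabolism and is reported as a reader too. YTHDF1 is itself a reader, in the cytoplasm, so the values here are peaks of a reader counted for genes of the same system. Whether the peaks lie on the mature messages of these genes is not known.

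The cocaine libraries held 24770 to 25528 peaks in listed genes and the saline libraries 3720 to 3944, a 6.57-fold difference between the totals, which touches every comparison of raw numbers below. The number of reads behind the peaks is unknown, so the part of sequencing depth in this difference was not tested. The columns have no replicate number, and libraries are called 1 to 3 by column order. Of 14 striatal neuron markers only Gad1 was listed, in saline alone with 5, 2 and 2 peaks, and none of 7 pan-neuronal or 7 astrocyte markers was. Among markers of other cells, 1 of 9 oligodendrocyte genes (Cnp), 2 of 6 microglial genes (Cx3cr1 and P2ry12) and 1 of 5 vascular genes (Pecam1) were listed. A gene that is not listed under its symbol lies below a cutoff, lacks a peak in at least 1 library or has no symbol in the tables. The number of peaks of such a gene is not known.

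Of the 34 genes on a list of m6A writers, erasers and readers, these were the only 3 listed under their symbols. Among 13 writers, Mettl3 was listed and its partners Mettl14, Wtap, Virma, Zc3h13, Rbm15 and Rbm15b were not. Neither eraser, Fto or Alkbh5, was listed, and none of the 5 YTH-domain readers was, including Ythdf1, the target of the antibody. Among 14 other reported readers, Igf2bp3 and Snd1 were listed, and Igf2bp1 and Igf2bp2, the paralogues of Igf2bp3, were not. The 3 listed genes are 8.82% of the list. Over all coding genes of the RefSeq annotation, 3.34% were listed in either table, 2.58% in cocaine and 1.33% in saline, and among the 48 markers of brain cell types named above 10.4% were. Because the genes were chosen with the tables known, these shares were not tested against each other. At the cutoff of the cocaine table, none of the 34 genes would have been listed in saline. Most saline genes would have been dropped too, as 137 of 449 had a mean above the 6.0 of Igf2bp3.

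Each of the 3 genes overlaps another in the RefSeq annotation of GRCm38.p6 (mm10). Mettl3 lies on the minus strand of chromosome 14 from 52294841 to 52308741 and spans 13.9 kb. Its last 669 bases overlap the end of Tox4, a gene of a nuclear HMG-box protein on the plus strand. Igf2bp3 lies on the minus strand of chromosome 6 from 49085218 to 49215469. Of its 130.3 kb, 41.4% is also annotated to Malsu1, a mitochondrial ribosome assembly gene, and the non-coding D030074P21Rik and the pseudogene Gm18010 lie within it. Snd1 lies on the plus strand of chromosome 6 from 28480337 to 28935162 and spans 454.8 kb. Within it, on the minus strand from 28828126 to 28831747, lies Lrrc4, a gene of a synaptic adhesion protein that binds netrin-G2. Of these overlapping genes, Lrrc4 alone was listed. No immediate neighbour was listed either: Rab2b and Sall2 beside Mettl3, Gm7890 and Tra2a beside Igf2bp3, and Pax4 and Gm38779 beside Snd1. The tables give neither position nor strand of a peak, so peaks counted for a gene cannot be separated from those of a gene that overlaps it.

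**Figure D1:**
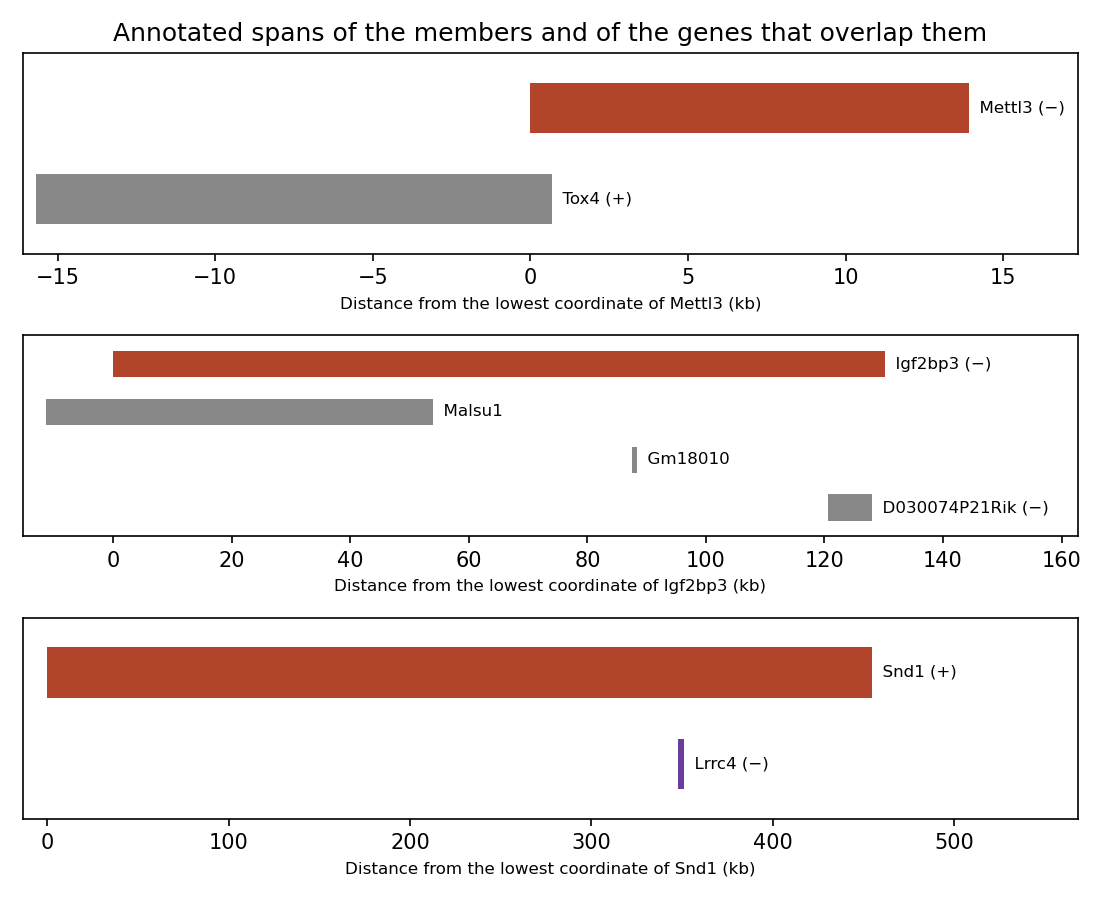
Annotated spans of Mettl3, Igf2bp3 and Snd1 (red) and of the genes that overlap them, as distance in kb from the lowest coordinate of each of the 3 genes, with the strand where the promoter table gives one. Lrrc4 (purple, 3.62 kb, starting 347.8 kb into Snd1) is listed in both peak tables, and the grey genes are in neither.

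Mettl3, the writer, was listed for cocaine alone and had 13 peaks in library 1, 3 in library 2 and 3 in library 3. A single library thus held 68.4% of its 19 peaks. The mean was 6.33 ± 5.77 (SD, n = 3), and without library 1 it was 3.0, under the cutoff of the table. No gene of the cocaine table had fewer peaks in sum, and 49 others had the same sum. Among these 50 genes the highest library had a median of 10 peaks, and 5 of the 50, Mettl3 among them, had 13 or more in 1 library. The coefficient of variation of Mettl3 was 91.2%, higher than that of 96.6% of the listed cocaine genes, whose median was 37.3%.

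Mettl3 was not in the saline table, and this alone is no measure of a difference between treatments. Of the 50 cocaine genes with 19 peaks in sum, 1 was also listed in saline (2.0%), against 23.9% of all cocaine genes. Mettl3 therefore shared its absence from the saline table with nearly all genes at its level. No saline value exists for it, and no test was made.

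Igf2bp3, a reported reader, had 37, 35 and 25 peaks in the cocaine libraries and 10, 3 and 5 in the saline libraries. The lowest cocaine library lay above the highest saline library, as it did for 77.7% of the 251 genes in both tables. The means were 32.3 ± 6.43 in cocaine and 6.0 ± 3.61 in saline (SD, n = 3 each). In cocaine, 85.7% of the 1049 listed genes had fewer peaks than Igf2bp3, and in saline 67.5% of 449. These lists differ in genes and cutoff, so the ranks cannot be compared between treatments. Its libraries were close to each other in cocaine, with a coefficient of variation of 19.9%, and farther apart in saline, with 60.1%, where library 1 held 10 of 18 peaks.

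Snd1, the other reported reader, had 17, 27 and 34 peaks in the cocaine libraries and 1, 7 and 5 in the saline libraries. Again the groups did not overlap, as for 77.7% of the 251 genes in both tables. The means were 26.0 ± 8.54 and 4.33 ± 3.06 (SD, n = 3 each). In cocaine 81.0% and in saline 51.7% of the listed genes had fewer peaks, again ranks within unlike lists. With a single peak, saline library 1 was at the lowest value found for any listed gene. In that same library Igf2bp3 was at its saline maximum of 10.

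**Figure D2:**
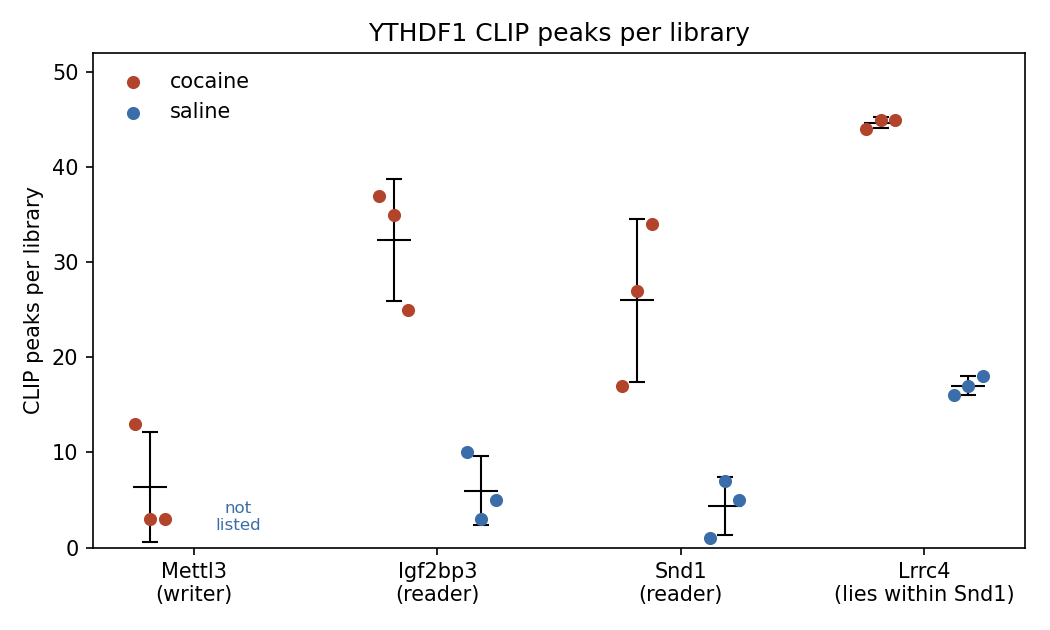
Number of CLIP peaks in each library for Mettl3, Igf2bp3, Snd1 and Lrrc4 (points), with the mean and SD of 3 libraries (black); red is cocaine and blue is saline. Mettl3 has 1 library at 13 and both others at 3, and the points of Lrrc4 lie within 2 peaks of each other in either treatment. The cocaine and saline points of Igf2bp3 and Snd1 do not overlap, as for 77.7% of the 251 genes in both tables.

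The raw number of peaks was 5.39 times as high in cocaine for Igf2bp3 and 6.0 times for Snd1. For either gene p was 0.1 in an exact permutation test (2-sided), and a design of 3 against 3 cannot go lower. Non-overlapping groups with cocaine on top were found in 77.7% of the 251 genes in both tables, so the separation was shared with most of them. The median ratio over these genes was 4.54, and 62.2% of them had a lower ratio than Igf2bp3 and 68.1% a lower ratio than Snd1. The 251 genes had to reach a mean of 6.33 peaks in cocaine but only 1.33 in saline, so genes with few cocaine peaks are left out. The part of these unlike cutoffs in the 77.7% and in the median ratio was not tested. Neither gene stood at an end of the shared genes. Both ratios were below the 6.57-fold difference between the totals of all listed peaks, which cover unlike sets of genes. They were above the 4.23-fold difference between the totals of the 251 shared genes.

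**Figure D3:**
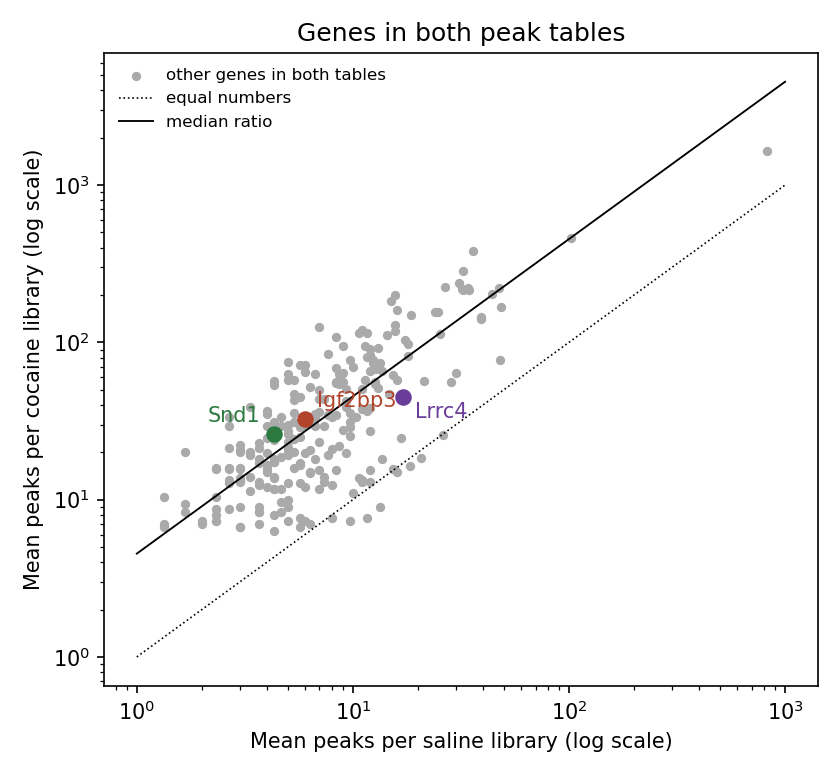
Mean peaks per cocaine library against mean peaks per saline library for the 251 genes in both tables, both axes on a log scale, with the line of equal numbers (dotted) and of the median ratio of 4.54 (solid). Igf2bp3 (6.0 and 32.3) and Snd1 (4.33 and 26.0) lie just above the median line and Lrrc4 (17.0 and 44.7) below it.

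As a share of the listed peaks of each library, Igf2bp3 made up 0.145, 0.141 and 0.1004% in cocaine and 0.264, 0.0806 and 0.127% in saline. Snd1 made up 0.0666, 0.109 and 0.136% in cocaine and 0.0264, 0.188 and 0.127% in saline. For both genes the cocaine shares lay within the range of the saline shares. These shares depend on the totals, in which a gene without a symbol had a mean of 1645 peaks in cocaine and 825.3 in saline. That gene made up a larger part of the saline totals than of the cocaine totals. The share was then tested across all genes in both tables with edgeR's quasi-likelihood test, on totals of the tested genes scaled by TMM factors, which correct for a few genes that dominate a library. Igf2bp3 had a log2 difference, cocaine minus saline, of 0.12 (SE 0.47, 95% interval -0.87 to 1.11, adjusted p = 0.868). Snd1 had a log2 difference of 0.27 (SE 0.55, 95% interval -0.89 to 1.44, adjusted p = 0.771). Neither passed, while 28.2% of the 202 genes tested did at an adjusted p under 0.05, 10.4% with a higher and 17.8% with a lower share in cocaine. Those are 21 and 36 genes, and the split moved to 25 and 30 with DESeq2 size factors, 31 and 29 with no factors and 5 and 52 with the totals of all listed peaks. The intervals reach beyond a 2-fold change upwards, so these libraries do not show that the shares were alike. With the totals of all listed peaks in place of those of the shared genes, both differences turned negative, to -0.28 for Igf2bp3 and -0.13 for Snd1, while the median over all genes tested moved from -0.02 to -0.47. The sign also turned for Igf2bp3 without saline library 2 (-0.10) and for Snd1 without saline library 1 (-0.13).

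The 2 readers were compared within libraries. Igf2bp3 held 68.5, 56.5 and 42.4% of the peaks of the pair in cocaine and 90.9, 30.0 and 50.0% in saline, so the saline range enclosed the cocaine range. The log2 ratio of Igf2bp3 to Snd1 was 0.35 ± 0.78 in cocaine and 0.70 ± 2.35 in saline (SD, n = 3 each; exact 2-sided permutation test, p = 0.9, adjusted p = 0.9 over 2 pairs of genes). In either treatment the SD between libraries was larger than the difference between treatments, which was -0.35 (cocaine minus saline).

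Lrrc4, which lies within Snd1, had more peaks than Snd1 in all 6 libraries. Its libraries held 44, 45 and 45 peaks after cocaine (44.7 ± 0.577) and 16, 17 and 18 after saline (17.0 ± 1.0; SD, n = 3 each). Since the count of Snd1 was the smaller one in every library, it cannot have included all peaks counted for Lrrc4, although the whole of Lrrc4 lies inside the span of Snd1. Per annotated length the difference was larger still, with 12.3 peaks per kb for Lrrc4 and 0.0572 for Snd1 in cocaine, a 215.7-fold difference, and 4.69 and 0.00953 in saline. Whether every peak counted for Lrrc4 lay within its annotated 3.62 kb cannot be read from the tables.

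The nested gene and its host were also compared between treatments, and the direct test of the pair, given below, did not pass. The raw number of Lrrc4 peaks was 2.63 times as high in cocaine, below the ratio of most shared genes, as 22.3% had a lower one. Its share was lower in cocaine by a log2 difference of -0.91 (SE 0.31, edgeR adjusted p = 0.0430), a call that 9 of 11 alternative settings did not keep (adjusted p from 0.00448 to 0.142 over the 11). The log2 difference itself was -1.32 to -0.70 over these settings. The edgeR adjusted p was 0.0569, 0.0380 and 0.0644 without cocaine library 1, 2 and 3. It was 0.0861, 0.128 and 0.125 without saline library 1, 2 and 3. In further fits with no filter it was 0.1765, 0.1195 and 0.1831 without cocaine library 1, 2 and 3. Snd1 held 27.9, 37.5 and 43.0% of the peaks of the pair in cocaine and 5.88, 29.2 and 21.7% in saline. One saline library, at 29.2%, lay above the lowest cocaine library. The log2 ratio of Snd1 to Lrrc4 was -0.84 ± 0.49 in cocaine and -2.38 ± 1.43 in saline (SD, n = 3 each), a difference of 1.54 that did not pass the exact 2-sided permutation test (p = 0.2, adjusted p = 0.4 over 2 pairs). This pair was chosen after its values were seen.

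Set on length, the order of the 3 genes in cocaine was the reverse of that by annotated size. Mettl3, the shortest, had 0.456 ± 0.415 peaks per kb, Igf2bp3 0.248 ± 0.0494 and Snd1 0.0572 ± 0.0188 (SD, n = 3 each). By library, Mettl3 had 0.935, 0.216 and 0.216 peaks per kb and Igf2bp3 0.284, 0.269 and 0.192, so these neighbours in the order overlapped. The libraries of Snd1, at 0.0374, 0.0594 and 0.0748, all lay below those of the other genes. In saline, Igf2bp3 had 0.0461 ± 0.0277 peaks per kb and Snd1 0.00953 ± 0.00672, and the lowest library of Igf2bp3 (0.0230) lay above the highest of Snd1 (0.0154).

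Among the 565 coding genes of the cocaine table, the median was 0.280 peaks per kb, and 63.5% had less than Mettl3, 46.2% less than Igf2bp3 and 19.1% less than Snd1. This scale follows gene length closely. Across these genes, peaks per kb and length had a Spearman correlation of -0.89, while the number of peaks and length had one of 0.04. These are descriptions across genes of the same libraries, and the cutoff of the table fixes the lowest value a gene of given length can have. Spans of whole genes include introns, and no length of the mature RNA was used.

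**Figure D4:**
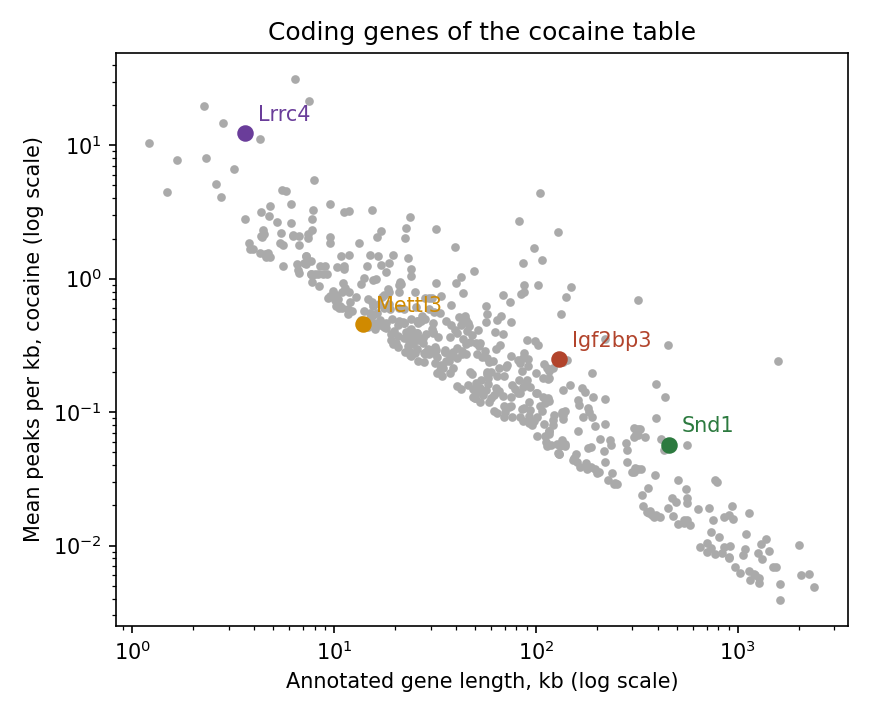
Mean peaks per kb of annotated gene against gene length for the 565 coding genes of the cocaine table, both axes on a log scale. Mettl3 (0.456 peaks per kb) lies on the lower edge, which is set by the cutoff of the table, while Igf2bp3 (0.248), Snd1 (0.0572) and Lrrc4 (12.3) lie above it.

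The genes with the most similar pattern were found by the Euclidean distance of log2 peaks over the libraries. For Igf2bp3, over 6 libraries and 167 named genes in both tables, the nearest were the non-coding 4930511M06Rik (distance 1.005), Spata6l (1.06), Abhd18 (1.08), the non-coding 9130019P16Rik (1.54) and Tifa (1.54), against a median of 3.24. The nearest of them, 4930511M06Rik, had 25, 33 and 41 peaks after cocaine and 12, 3 and 4 after saline, which is the level of Igf2bp3 with another order of the cocaine libraries. For Snd1 they were Cdr1 (1.62), Arhgap26 (1.68), Stard9 (1.96), the non-coding Grip1os1 (2.04) and Zfpm1 (2.05), against a median of 3.996. For Mettl3, over 3 cocaine libraries and 548 named genes of that table alone, they were Tmem204 (0.47), Arpin (0.57), Plekhh1 (0.57), BC055324 (0.59) and the non-coding Gm1604a (0.59), against a median of 2.78. Each of these 5 had 14 to 18 peaks in library 1 and 2 to 4 in the others.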

How the data were processed

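YTHDF1 CLIP-seq of mouse striatum was analysed from 2 deposited tables, 1 per treatment. Per the submitters' processing notes, cutadapt and STAR were used with mm10; no version is stated. CLIPper is named only by the titles of the tables, and neither its settings, nor any use of input, nor the rule that gave peaks to genes is stated. Per the file headers and values, the authors deposited counts of peaks (not reads) per gene for 3 libraries in each table. The mean of the 3, another deposited column, was used only as a check. A table was tied to its treatment by the letter c or s of its title, which also opens the library names in the labels.

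Repeated lines of a gene were merged, which left 1049 and 449 genes. Of 894 genes with 1 symbol, 891 matched a symbol of RefSeq's annotation (GRCm38.p6). Strands came from the RefSeq promoter table of that build. The 251 shared genes were compared between treatments in edgeR 4.0.16 (R 4.3.3; TMM, filterByExpr, quasi-likelihood test, no replicate block, Benjamini-Hochberg adjustment over the 202 genes kept, FDR 0.05). Single values were compared by exact permutation tests in SciPy 1.17.1. DESeq2 1.42.0 was an alternative, as were other library totals, no filter and leaving out each library. No label says that libraries came from separate animals, so the p-values reflect a spread that may be technical. Named genes were the 3 genes, listed m6A genes, genes that overlap or adjoin the 3, and the 5 genes nearest to each in pattern. The genes and lists were chosen with earlier results of these data known.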

Additional observations from a re-analysis of the deposited data

How the results depend on the processing

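No paired analysis was possible because the columns of the tables carry no replicate numbers. The raw ratio ranged from 4.31 to 8.08 for Igf2bp3 and from 4.33 to 8.67 for Snd1 when each library was left out, on both sides of the median ratio of the shared genes (4.54) and of the ratio of the listed totals (6.57). The log2 difference in share passed the edgeR or DESeq2 threshold for neither gene under any alternative run. It ranged from -0.10 to 0.76 for Igf2bp3 and from -0.13 to 0.90 for Snd1 over the left-out libraries, and was -0.28 and -0.13 with the totals of all listed genes. The filter dropped both genes when a cocaine library was left out, so those fits were made without it, an alternative added after seeing the data. Genes called higher numbered 21, 5 with totals of all listed genes, and 6 to 21 over the left-out libraries (7, 7 and 6 without cocaine library 1, 2 and 3, and 10 without saline library 1). Genes called lower numbered 36, 23 with DESeq2, and 17 to 28 over the left-out libraries (17, 20 and 17 without cocaine library 1, 2 and 3, and 23 and 22 without saline library 1 and 2). Without a cocaine library 103 to 108 genes were tested, against 202. With no filter, over 251 genes, the higher and lower calls were 18 and 30 without cocaine library 1, 7 and 20 without library 2 and 16 and 24 without library 3. The cause of the remaining shifts was not tested. Listed m6A genes in saline numbered 2, and 0 at the cocaine cutoff, which most saline genes would miss too. Depth is known only as peaks, and the listing of Mettl3 rests on 1 library.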

Other observations

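The numbers of Lrrc4 varied little between libraries. Its coefficient of variation was 1.29% in cocaine, where 1 of 1049 genes had a lower one, and 5.88% in saline, where 33 of 449 had a lower one. Snd1, its host gene, had 32.9% and 70.5% in the same libraries. The gene was singled out after its values were seen, and the difference was not tested.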
